A study of Homo sapiens with 6 samples.

Results

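The 9 genes NFE2L2, KEAP1, NQO1, HMOX1, GCLC, GCLM, TXNRD1, SRXN1 and SLC7A11 form a small set around the transcription factor NRF2 and the glutathione antioxidant system. They were taken by name from a table of 60612 genes, and all 9 were counted in every library. They were measured in U87, a long-established line of human glioblastoma, by RNA sequencing of 3 libraries from cells given a lentivirus with a scramble shRNA (NC) and of 3 from cells given a lentivirus with an shRNA against PRMT6 (shPRMT6). PRMT6 is an arginine methyltransferase that modifies histones and other proteins. Polybrene was used for the infection per the labels, and the study's methods describe stable lines selected with puromycin, so both groups carry a viral vector and were selected. Libraries are called by group and number (NC-1 is NC replicate 1). The sample names number the shPRMT6 libraries from 1 to 3 as shRNA, and whether these are different shRNAs or replicates of 1 shRNA is not stated there. The study's methods call them independent replicates of the cells, without saying how the cultures were separated. P-values below therefore measure the spread between these libraries, which may be in part technical.

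NRF2, encoded by NFE2L2, is held in the cytoplasm by KEAP1, which hands it to a CUL3 ubiquitin ligase for degradation. Oxidants and electrophiles modify cysteines of KEAP1, NRF2 then accumulates, pairs with a small MAF protein and binds antioxidant response elements in the DNA of its target genes. Its activity is set largely at the level of the protein, which RNA counts do not measure. Known targets make glutathione, reduce oxidised thiols and quinones, and break down heme, and tumour cells often depend on them for cystine uptake and resistance to oxidative stress.

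The core of the antioxidant response element was searched for as TGACNNNGC on both strands of RefSeq promoters (GRCh38.p14), each window running from 250 bases before to 50 bases after an annotated start. Of 35116 promoters of all genes, 4687 (13.3%) held it. Of the 9 genes, 7 had 1 or more promoters in this set, 10 in all, and 3 genes (GCLM, KEAP1 and TXNRD1) had the core in 4 of those 10 promoters. The 150 bases before the start are shown for 1 promoter of each of these 3 genes, because they hold the letters that NRF2 is known to read. Capitals mark the core. The GCLM stretch is chr1:93909431-93909580 on the minus strand, the KEAP1 stretch chr19:10502772-10502921 on the minus strand, and the TXNRD1 stretch chr12:104286882-104287031 on the plus strand, at a start inside the gene.
GCLM: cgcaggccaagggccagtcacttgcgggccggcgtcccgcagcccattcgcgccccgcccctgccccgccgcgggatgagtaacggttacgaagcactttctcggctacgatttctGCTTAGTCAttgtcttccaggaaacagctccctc
KEAP1: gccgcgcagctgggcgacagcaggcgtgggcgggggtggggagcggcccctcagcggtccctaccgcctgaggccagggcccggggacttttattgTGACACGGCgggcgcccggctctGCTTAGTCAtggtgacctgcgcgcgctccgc
TXNRD1: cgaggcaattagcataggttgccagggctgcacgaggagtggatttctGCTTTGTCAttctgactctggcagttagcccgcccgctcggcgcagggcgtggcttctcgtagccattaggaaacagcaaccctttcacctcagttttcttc
The same 9 letters, GCTTAGTCA, stood at -34 in GCLM and at -31 in KEAP1, counted to the first letter of the match with -1 as the base before the start, and 36 of the 35116 promoters (0.103%) held them. The other sequences matched in promoters of these genes were each held by between 0.0797% and 0.313% of promoters. The share of GCTTAGTCA thus does not set it apart from them. KEAP1 also held TGACACGGC at -54, and the TXNRD1 stretch held GCTTTGTCA at -102. The promoter at the upstream start of TXNRD1, not shown, held TGACTTCGC at -99 and GCTCCGTCA at -8. The windows of NFE2L2, GCLC, NQO1 and SRXN1 held no match, which says only that these letters are not in these windows. HMOX1 and SLC7A11 had no entry. A match is a description of the sequence and not a measured binding site. Among the 3 genes shown, GCLM rose in shPRMT6 and the values of KEAP1 and TXNRD1 did not pass the test, as given below.

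The counts summed to between 56388161 and 75887696 per NC library and to between 61805330 and 67630740 per shPRMT6 library. PRMT6, the targeted gene, was counted 522, 606 and 449 times in NC-1, NC-2 and NC-3 and 227, 282 and 355 in shPRMT6, and all 3 shPRMT6 libraries lay below all 3 NC libraries. After scaling to library size (CPM, counts relative to the library total with TMM factors), PRMT6 stood at 54.7% of the NC mean (log2 fold change -0.87, SE 0.187, edgeR quasi-likelihood test with Benjamini-Hochberg adjustment over 18106 genes, adjusted p = 0.0225). This call was lost without NC replicate 1 (-0.77, adjusted p = 0.0613), without shPRMT6 replicate 1 (-0.73, adjusted p = 0.0588) and without shPRMT6 replicate 2 (-0.89, adjusted p = 0.0713). Of 21 markers chosen to check the cell line, VIM (7090.1 to 8427 CPM), CD44 (455 to 651 CPM) and NES (38.3 to 45.7 CPM) were expressed, the glial markers S100B and ALDH1L1 had 0 counts, and GFAP reached no more than 0.886 CPM. CDKN2A had at most 2 counts in a library. Of 8 markers of other cell types, PTPRC had at most 4 counts, and COL1A1 (662 to 754 CPM) and CD68 (144 to 316 CPM) were the most abundant. The summed level of these 8 markers was 901 to 1009 CPM in NC and 908 to 1068 CPM in shPRMT6, and 1 of them, KRT8, passed the test between the groups (log2 fold change -1.23, adjusted p = 0.0295 by the same edgeR test).

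The comparison of shPRMT6 with NC asked how the RNA of the 9 genes differed after PRMT6 knockdown. HMOX1, which encodes the inducible heme oxygenase, rose about 2.20-fold, GCLM and SRXN1 rose by less, and SLC7A11, the cystine importer, fell. The other 5 genes, NRF2 and KEAP1 themselves among them, did not pass the test. So 4 of the 9 genes (44.4%) were past an adjusted p of 0.05, 3 higher and 1 lower. Of the 18106 genes tested, 3362 (18.6%) were, 9.51% higher and 9.06% lower. The 9 genes were chosen with earlier results of these data known, so these shares are a description and no test. The count of 4 fell to between 1 and 3 when 1 library was left out. With the replicate number as a block in the fit it was 1. The median log2 fold change was 0.07 over the 9 genes and -0.01 over all genes tested. The 2 groups did not overlap in the same 4 genes, and they did not overlap in 40.2% of all genes tested, so that count stood close to the background. The exact two-sided permutation test over the 6 libraries gave these 4 genes p = 0.1, the smallest value that 3 against 3 allows.

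**Figure D1:**
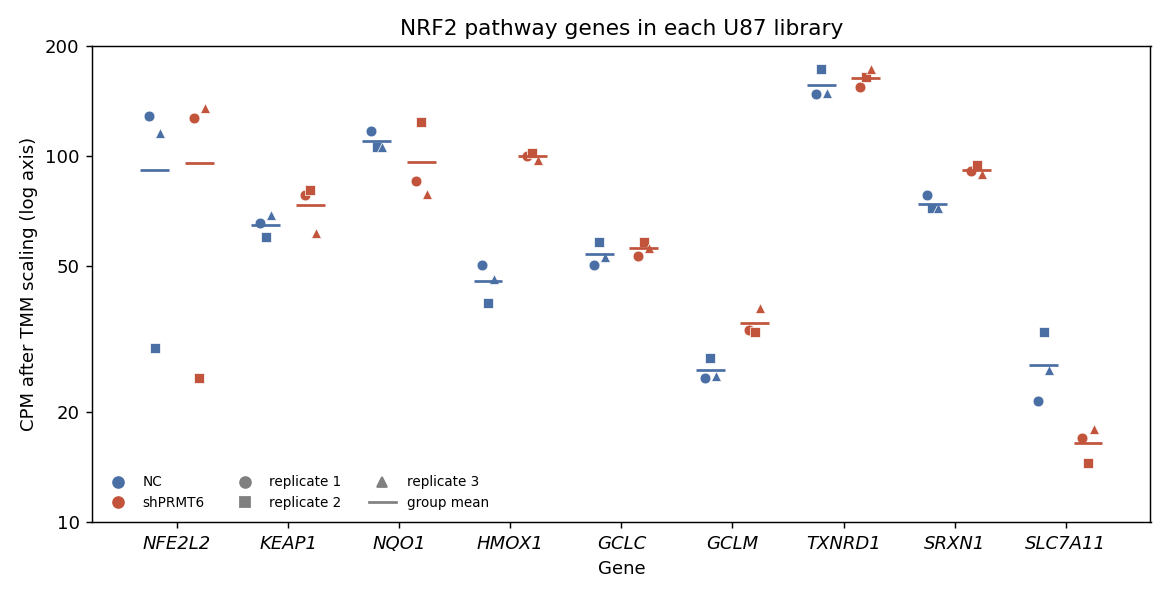
CPM after TMM scaling (log axis) of each of the 9 genes in each library, with NC in blue and shPRMT6 in red, the replicate number as the symbol and the group mean as a line. HMOX1 lay between 39.7 and 50.5 CPM in NC and between 97.3 and 102 CPM in shPRMT6, and NFE2L2 was low in the library numbered 2 of each group.

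**Figure D2:**
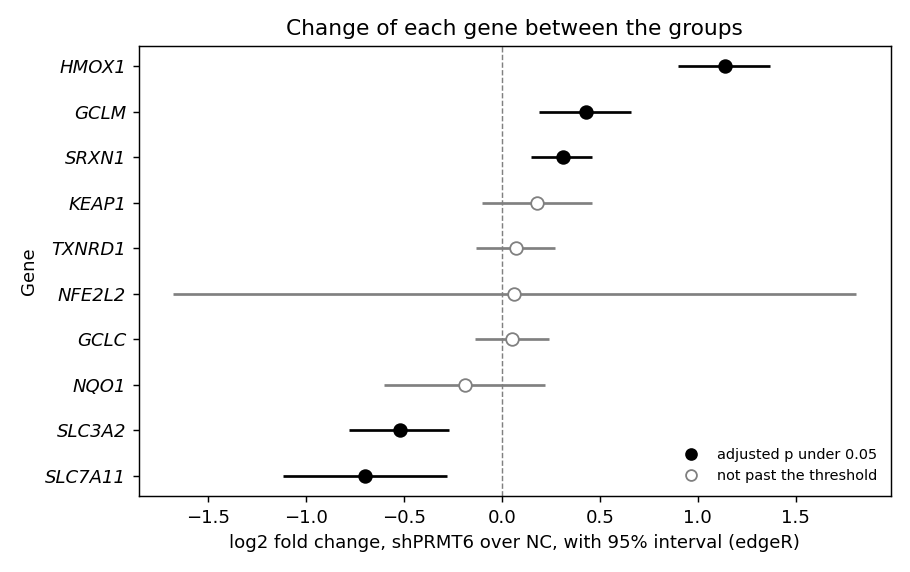
Log2 fold change of shPRMT6 over NC with its 95% interval from edgeR for the 9 genes and for SLC3A2, the partner chain of SLC7A11, where filled points are past an adjusted p of 0.05. HMOX1 stood at 1.14 and SLC7A11 at -0.70, while the interval of NFE2L2 ran from -1.68 to 1.81.

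NFE2L2 (ENSG00000116044, chromosome 2 from 177227595 to 177392697 on the minus strand of GRCh38) encodes NRF2. It was counted 7199, 2276 and 7249 times in NC-1, NC-2 and NC-3, and 8104, 1529 and 9156 in shPRMT6-1, shPRMT6-2 and shPRMT6-3. The library numbered 2 was low in both groups, and the groups overlapped. Scaled to library size these were 129, 29.9 and 116 CPM in NC and 127, 24.8 and 135 CPM in shPRMT6. NC replicate 2 held 24.4% of the mean of the other NC libraries, and shPRMT6 replicate 2 held 18.9% of the mean of the other shPRMT6 libraries. The difference between the groups was small against this spread (log2 fold change 0.06, SE 0.728, 95% interval -1.68 to 1.81, adjusted p = 0.963 by edgeR). Without both libraries numbered 2, an alternative added after these values were seen, it was 0.10 (SE 0.0848, adjusted p = 0.506). Leaving out 1 library turned its sign in 3 of 6 fits, to -0.36 without NC replicate 2, to -0.19 without shPRMT6 replicate 1 and to -0.27 without shPRMT6 replicate 3.

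Among the 10051 genes that averaged 3 or more on the log2 CPM scale, the spread of NFE2L2 within groups (SD 1.28 on the log2 scale) was exceeded by 68. Both libraries numbered 2 lay below the other 4 in 327 of these genes (3.25%) and above them in 291 (2.90%). The gap between the higher of the libraries numbered 2 and the lowest of the other 4 was 1.95 log2 units for NFE2L2, which ranked 2 of 10051. That gap exceeded 1 in 6 genes on the low side and in 0 on the high side. None of the other 8 genes had both libraries numbered 2 low with a gap above 0. As a share of the mean of the other libraries of its group, replicate 2 held 82.0% of HMOX1, 94.8% of NQO1 and 116% of TXNRD1 in NC, and 104%, 151% and 100.3% in shPRMT6. These known targets therefore lay between 82.0% and 151% in libraries where NFE2L2 lay at 24.4% and 18.9%.

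**Figure D3:**
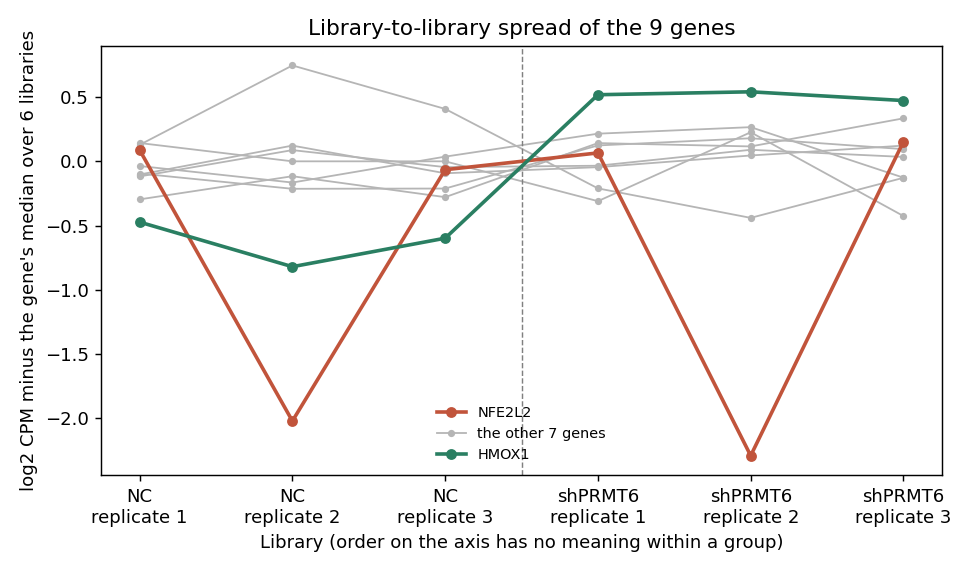
Log2 CPM of each of the 9 genes minus that gene's median over the 6 libraries, library by library, with NFE2L2 in red, HMOX1 in green and the other 7 genes in grey. NFE2L2 was low in NC replicate 2 and shPRMT6 replicate 2, and HMOX1 was higher in each shPRMT6 library than in each NC library.

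In counts not scaled to library size, neither ENSG00000213963 nor AGPS, which overlap NFE2L2, was lowest in replicate 2 of either group. AGPS shares only 0.903% of the exon bases of NFE2L2. The same-strand transcript ENSG00000213963 covers 17.628% of the exon bases of NFE2L2 and had 135, 136 and 106 counts in NC and 208, 119 and 103 in shPRMT6. AGPS, on the opposite strand at its upstream end, had 3368, 4937 and 3838 counts in NC and 3835, 4014 and 4418 in shPRMT6. Reads of overlapping genes cannot be told apart where the use of strand in counting is not given. The cause of the low NFE2L2 counts in these libraries was not tested.

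KEAP1 (ENSG00000079999, chromosome 19 from 10486120 to 10503741, minus strand) is the cysteine sensor that restrains NRF2. It had 65.6, 60.0 and 69.0 CPM in NC-1, NC-2 and NC-3 and 78.1, 80.9 and 61.6 CPM in shPRMT6-1, shPRMT6-2 and shPRMT6-3. Its groups overlapped through shPRMT6 replicate 3, which was lower than 2 of the NC libraries. The log2 fold change was 0.18 (SE 0.118, 95% interval -0.10 to 0.46, adjusted p = 0.344 by edgeR). The ratio of NFE2L2 to KEAP1 in FPKM, which is scaled to length, was 1.24, 0.314 and 1.06 in NC and 1.03, 0.193 and 1.38 in shPRMT6. Replicate 2 was again the low library of each group, and the log2 difference of the ratio was -0.20 (exact permutation p = 0.8, adjusted p = 0.8 over 3 ratios).

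GCLC and GCLM encode the catalytic and the modifier subunit of glutamate-cysteine ligase, the first and rate-limiting enzyme of glutathione synthesis. GCLC (ENSG00000001084, chromosome 6 from 53497341 to 53616970, minus strand) had 50.5, 58.2 and 53.1 CPM in NC-1, NC-2 and NC-3 and 53.5, 58.3 and 56.1 CPM in shPRMT6. Its groups overlapped, with a log2 fold change of 0.05 (SE 0.0784, 95% interval -0.14 to 0.24, adjusted p = 0.700 by edgeR). GCLM (ENSG00000023909, chromosome 1 from 93885205 to 93909456, minus strand) had 24.8, 28.1 and 25.1 CPM in NC and 33.6, 33.0 and 38.4 CPM in shPRMT6, so each shPRMT6 library was above each NC library. GCLM rose from 26.0 ± 1.85 CPM (SD, n = 3) to 35.0 ± 2.99 CPM (SD, n = 3), with a log2 fold change of 0.43 (SE 0.0978, 95% interval 0.19 to 0.66, adjusted p = 0.0280 by edgeR). The call held without NC replicate 2 (0.49, adjusted p = 0.0274) and was lost when any other library was left out, with log2 fold changes of 0.39 without NC replicate 1, 0.40 without NC replicate 3, and 0.46, 0.47 and 0.36 without shPRMT6 replicates 1, 2 and 3 (adjusted p from 0.0623 to 0.0947).

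The ratio of GCLC to GCLM in FPKM was 1.28, 1.30 and 1.33 in NC and 1.00, 1.11 and 0.918 in shPRMT6, so that the groups did not overlap. The mean ratio was 1.30 ± 0.0250 (SD, n = 3) in NC and 1.01 ± 0.0969 (SD, n = 3) in shPRMT6. The log2 difference was -0.37, with an exact two-sided permutation p of 0.1, the smallest possible, and an adjusted p of 0.3 over the 3 ratios computed, so this difference did not pass a test.

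SLC7A11 (ENSG00000151012, chromosome 4 from 138164097 to 138242349, minus strand) encodes the light chain xCT of the exchanger that imports cystine, the source of cysteine for glutathione, in return for glutamate. It had 21.5, 33.0 and 26.1 CPM in NC-1, NC-2 and NC-3 and 17.0, 14.5 and 18.0 CPM in shPRMT6. Every shPRMT6 library lay below every NC library, and NC replicate 2 was the highest of all. SLC7A11 fell from 26.9 ± 5.82 CPM (SD, n = 3) to 16.5 ± 1.83 CPM (SD, n = 3), or 61.5% of the NC mean, with a log2 fold change of -0.70 (SE 0.175, 95% interval -1.12 to -0.28, adjusted p = 0.0366 by edgeR). In these bulk samples, fewer cells that express a gene and less RNA of it per cell cannot be told apart. The call held without NC replicate 1 (-0.84, adjusted p = 0.0237) and was lost when any other library was left out, with log2 fold changes of -0.53 without NC replicate 2, -0.72 without NC replicate 3, and -0.73, -0.62 and -0.77 without shPRMT6 replicates 1, 2 and 3 (adjusted p from 0.0605 to 0.116). Without both libraries numbered 2 the log2 fold change of SLC7A11 was -0.44 (adjusted p = 0.137).

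SLC3A2 (ENSG00000168003, chromosome 11 from 62856102 to 62888875, plus strand) encodes the heavy chain 4F2hc, which carries xCT and several other amino acid transporters to the cell surface. It had 111, 128 and 136 CPM in NC and 85.3, 79.1 and 96.8 CPM in shPRMT6, again with no overlap. SLC3A2 fell from 125 ± 12.8 CPM (SD, n = 3) to 87.1 ± 8.97 CPM (SD, n = 3), with a log2 fold change of -0.52 (SE 0.107, adjusted p = 0.0195 by edgeR). This call was lost without NC replicate 3 (-0.46, adjusted p = 0.0654), without shPRMT6 replicate 1 (-0.51, adjusted p = 0.0710) and without shPRMT6 replicate 2 (-0.46, adjusted p = 0.0704). The RNA of both chains of the exchanger was thus lower in shPRMT6, in calls that depended on the libraries kept. The ratio of SLC7A11 to SLC3A2 in FPKM was 0.103, 0.139 and 0.102 in NC and 0.107, 0.0980 and 0.0996 in shPRMT6 (log2 difference -0.16, exact permutation p = 0.4, adjusted p = 0.6 over 3 ratios).

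TXNRD1 and SRXN1 act on protein thiols. TXNRD1 (ENSG00000198431, chromosome 12 from 104215779 to 104350305, plus strand) encodes the selenoprotein thioredoxin reductase of the cytosol and had 148, 173 and 149 CPM in NC-1, NC-2 and NC-3 and 154, 164 and 173 CPM in shPRMT6. Its groups overlapped, with a log2 fold change of 0.07 (SE 0.0836, 95% interval -0.13 to 0.27, adjusted p = 0.642 by edgeR). SRXN1 (ENSG00000271303, chromosome 20 from 646615 to 653370, minus strand) encodes sulfiredoxin, which restores overoxidised peroxiredoxins, and had 78.3, 72.1 and 72.2 CPM in NC and 91.1, 94.7 and 89.3 CPM in shPRMT6. The shPRMT6 libraries all lay above the NC libraries, and SRXN1 rose from 74.2 ± 3.52 CPM (SD, n = 3) to 91.7 ± 2.76 CPM (SD, n = 3), with a log2 fold change of 0.31 (SE 0.0631, 95% interval 0.15 to 0.46, adjusted p = 0.0198 by edgeR). The call of SRXN1 held without NC replicate 1 (0.34) and without NC replicate 2 (0.29), and it was lost without NC replicate 3 (0.29) and without shPRMT6 replicates 1, 2 and 3 (0.31, 0.28 and 0.33; adjusted p from 0.0578 to 0.0864). An overlapping same-strand gene, ENSG00000270299, covers 84.952% of the exon bases of SRXN1 and was listed at 0 counts in every library, so the SRXN1 values depend on how reads of the shared exons were assigned.

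NQO1 (ENSG00000181019, chromosome 16 from 69706996 to 69726951, minus strand) encodes the quinone reductase that is widely used as a readout of NRF2 activity. It had 117, 106 and 106 CPM in NC-1, NC-2 and NC-3 and 85.5, 124 and 78.9 CPM in shPRMT6. In shPRMT6, replicates 1 and 3 were below all NC libraries and replicate 2 was above them. The log2 fold change was -0.19 (SE 0.172, 95% interval -0.60 to 0.22, adjusted p = 0.508 by edgeR), and without shPRMT6 replicate 2 it was -0.42, which passed the threshold (adjusted p = 0.0443). So 2 of 3 shPRMT6 libraries were below the NC range for NQO1, while 3 of 3 were above it for HMOX1.

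HMOX1 (ENSG00000100292, chromosome 22 from 35380361 to 35394214, plus strand) encodes heme oxygenase 1, which opens heme into biliverdin, iron and carbon monoxide and which responds to heme through BACH1 as well as to NRF2. It was counted 2825, 3019 and 2893 times in NC-1, NC-2 and NC-3 and 6395, 6306 and 6587 in shPRMT6-1, shPRMT6-2 and shPRMT6-3. Scaled to library size these were 50.5, 39.7 and 46.3 CPM in NC and 100.4, 102 and 97.3 CPM in shPRMT6, so the lowest shPRMT6 library stood far above the highest NC library. HMOX1 rose from 45.5 ± 5.45 CPM (SD, n = 3) to 100.1 ± 2.63 CPM (SD, n = 3), or 219.8% of the NC mean, with a log2 fold change of 1.14 (SE 0.0973, 95% interval 0.90 to 1.37, adjusted p = 0.00119 by edgeR). Of the 9 genes it alone had an adjusted p under 0.05 together with an absolute log2 fold change over 1, which 3.60% of all genes tested had. By p it ranked 88 among the 8856 genes with a positive fold change. HMOX1 passed the threshold under all 16 alternatives run, with log2 fold changes from 1.03 to 1.21 and adjusted p from 7.55e-29 (DESeq2) to 0.0196 (edgeR without both libraries numbered 2), and the rise within same-numbered libraries was 0.99, 1.37 and 1.07 log2 units.

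The genes whose profile over the 6 libraries was most like that of HMOX1 were PRSS3, RNF112 and IL17RC. Likeness was the root mean square difference of log2 CPM centred on the NC mean, over 10044 genes that were compared, and it was 0.0601 for PRSS3, 0.0745 for RNF112 and 0.0788 for IL17RC. Their log2 fold changes were 1.07, 1.16 and 1.07. None of them is one of the other 8 genes, and they were chosen for this pattern, so it is a description and no test.

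Scaled to length as well as depth, the order of the 9 genes differed between the groups. In NC, NQO1 stood highest at 31.1 ± 1.54 FPKM (fragments scaled to length and depth, SD, n = 3), above SRXN1 at 24.7 ± 0.965 and TXNRD1 at 19.6 ± 1.78 FPKM, with no overlap between these neighbours. HMOX1 (16.7 ± 1.94 FPKM), KEAP1 (15.3 ± 1.14 FPKM) and NFE2L2 (13.6 ± 7.96 FPKM) overlapped from 1 to the next, and NFE2L2 also overlapped GCLC (5.26 ± 0.404 FPKM) through its low library. GCLM (4.03 ± 0.293 FPKM) and SLC7A11 (2.35 ± 0.515 FPKM) stood lowest and apart. In shPRMT6, HMOX1 came first at 36.8 ± 0.907 FPKM, SRXN1 (30.7 ± 0.876 FPKM) and NQO1 (27.4 ± 6.97 FPKM) overlapped, and TXNRD1 followed at 20.7 ± 1.21 FPKM. KEAP1 (17.4 ± 2.44 FPKM), NFE2L2 (14.3 ± 9.20 FPKM), GCLC (5.49 ± 0.231 FPKM) and GCLM (5.46 ± 0.475 FPKM) overlapped from 1 to the next. SLC7A11 was lowest at 1.45 ± 0.163 FPKM and did not overlap GCLM. By mean, HMOX1 thus moved from rank 4 to rank 1, and GCLC and GCLM, apart in NC, overlapped in shPRMT6. By median, NFE2L2 (17.4 FPKM) stood above HMOX1 (17.1 FPKM) in NC. The highest NFE2L2 library also lay above the lowest TXNRD1 library, at 18.9 against 18.4 FPKM in NC and 20.2 against 19.4 FPKM in shPRMT6.

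The other genes of the pathway were read from 6 lists of 110 genes. Of the 104 that were tested, 28 (26.9%) were past an adjusted p of 0.05, 16 higher and 12 lower, beside 18.6% of all genes tested, and their median log2 fold change was 0.10. No list was tested as a set. Of the 23 genes named from these lists below, 12 stayed past the threshold whichever library was left out. These 12 are GSTA4, GLRX, GGT7, SOD2, SESN2, IDH1, HMOX2, NCOA4, AKR1C1, ABCC3, ABCC1 and AKR1B1, and calls of the others depended on 1 or more libraries. Under all 16 alternatives run, 7 of the 23 stayed past the threshold, namely GLRX, SOD2, SESN2, IDH1, ABCC3, ABCC1 and AKR1B1.

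**Figure D4:**
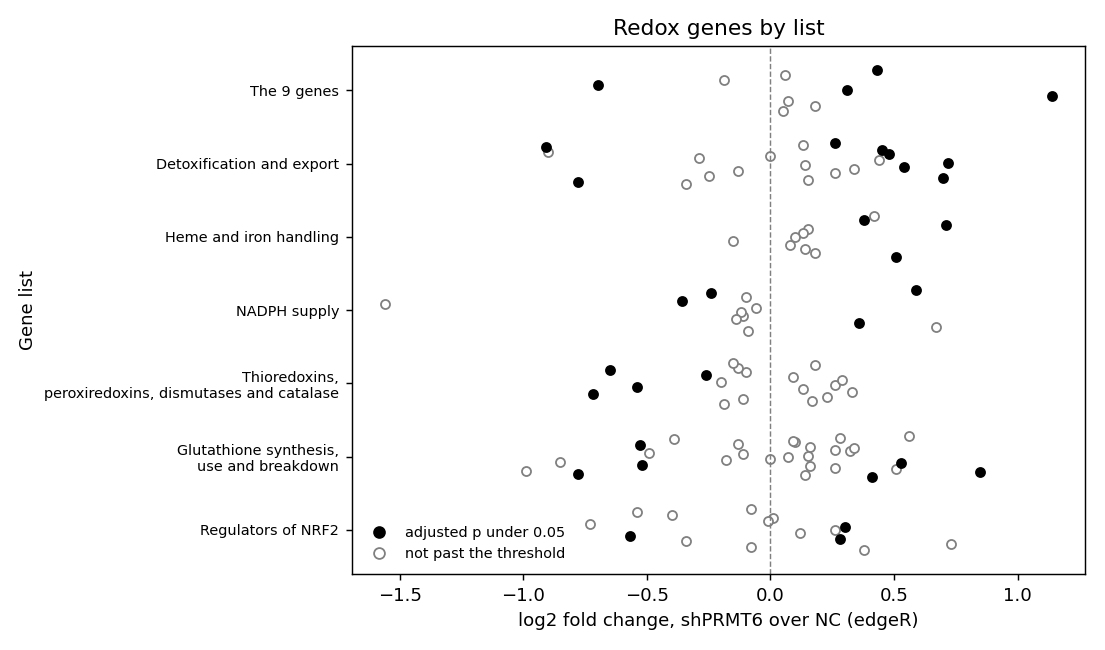
Log2 fold change of shPRMT6 over NC (edgeR) of each tested gene of the 6 lists and of the 9 genes, with filled points past an adjusted p of 0.05; the height within a row only separates the points. Called genes stood on both sides of 0 in each row except heme and iron handling, where 3 were higher and 0 lower, and thioredoxins and related enzymes, where 0 were higher and 4 lower.

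Of 15 tested genes listed as regulators of NRF2, 3 (20%) passed the test, a share near the 18.6% of all genes tested (median log2 fold change -0.01). GSK3B, a kinase that marks NRF2 for degradation apart from KEAP1, rose (0.30, SE 0.0790, adjusted p = 0.0454 by edgeR), as did BTRC, the ligase adaptor that reads that mark (0.28, SE 0.0744, adjusted p = 0.0453). NRF1, the nuclear respiratory factor, fell (-0.57, SE 0.155, adjusted p = 0.0488), and all 3 of these calls lay close to the threshold. NRF1 was counted as part of the list, and whether it regulates NRF2 was not tested. It is not NFE2L1, a separate gene of the list, which had 0.01 (SE 0.261, adjusted p = 0.991). CUL3, the ligase scaffold used by KEAP1, had a log2 fold change of -0.01 (SE 0.0699), and BACH1, the repressor at HMOX1, had -0.08 (SE 0.154). SQSTM1, which binds KEAP1 and takes it to autophagy, had 0.26 (SE 0.0732, adjusted p = 0.0535). On the lower side, PGAM5 had -0.40 (SE 0.113, adjusted p = 0.0525 by edgeR) and CREBBP -0.34 (SE 0.109, adjusted p = 0.0775). MAFF, a small MAF partner of NRF2, stood at 10.6, 71.1 and 14.8 CPM in NC-1, NC-2 and NC-3 and at 73.8, 72.5 and 14.2 CPM in shPRMT6. MAFF was thus high in 1 NC library and in 2 shPRMT6 libraries, and its difference between the groups was within that spread (0.73, SE 0.871, adjusted p = 0.621). NFE2L1, CUL3, BACH1, SQSTM1, PGAM5, CREBBP and MAFF were chosen after their values were seen.

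Among 28 tested genes of glutathione synthesis, use and breakdown, 6 (21.4%) passed the test, 3 higher and 3 lower, near the 18.6% of all genes tested (median 0.12). Higher were GSTA4, a transferase that conjugates lipid aldehydes to glutathione (0.85, SE 0.125, adjusted p = 0.00620 by edgeR), GLRX, the glutaredoxin of the cytosol (0.53, SE 0.0672, adjusted p = 0.00389), and GSTO1 (0.41, SE 0.0786, adjusted p = 0.0160). Lower were GGT7, of the gamma-glutamyltransferase family (-0.53, SE 0.0799, adjusted p = 0.00672), SLC3A2, given above, and the low-level GPX3 (-0.78, adjusted p = 0.0340), which averaged under the level set for naming and was added after its values were seen. Transferases of this family are alike in sequence, so reads may be shared between them.

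Of 18 thioredoxins, peroxiredoxins, dismutases and catalase, 4 (22.2%) passed the test, near the 18.6% of all genes tested, and all 4 were lower (median -0.10). SOD2, the superoxide dismutase of mitochondria, fell from 174 ± 9.38 to 106 ± 7.33 CPM (SD, n = 3 each) with a log2 fold change of -0.72 (SE 0.0747, adjusted p = 0.00205 by edgeR). The sestrins SESN1 (-0.65, SE 0.127, adjusted p = 0.0161) and SESN2 (-0.54, SE 0.0698, adjusted p = 0.00413), stress proteins that restrain mTORC1, fell as well. The fourth was PRDX3, the mitochondrial peroxiredoxin (-0.26, SE 0.0708, adjusted p = 0.0492), named after its values were seen. Of the genes of this list that did not pass, 8 had a positive and 6 a negative fold change.

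Of 12 genes of NADPH supply, which feeds the reduction of both glutathione and thioredoxin, 4 (33.3%, beside 18.6% of all genes tested) passed the test, 2 higher and 2 lower (median -0.11). IDH1, the cytosolic isocitrate dehydrogenase, rose from 142 ± 7.75 to 215 ± 11.4 CPM (SD, n = 3 each; log2 fold change 0.59, SE 0.0684, adjusted p = 0.00274 by edgeR), while IDH2, its mitochondrial counterpart, fell (-0.36, SE 0.0733, adjusted p = 0.0182). PGD of the pentose phosphate pathway rose (0.36, SE 0.0905, adjusted p = 0.0377) and MTHFD2 of mitochondrial folate metabolism fell (-0.24, SE 0.0611, adjusted p = 0.0373).

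Of 11 tested genes of heme and iron handling, 3 (27.3%, beside 18.6% of all genes tested) passed the test and all 3 were higher (median 0.15). HMOX2, the constitutive heme oxygenase, rose from 14.8 ± 1.60 to 24.1 ± 2.80 CPM (SD, n = 3 each; log2 fold change 0.71, SE 0.128, adjusted p = 0.0126 by edgeR). BLVRB, which encodes biliverdin reductase B, rose (0.51, SE 0.114, adjusted p = 0.0257), and so did NCOA4, the receptor that takes ferritin to autophagy (0.38, SE 0.0701, adjusted p = 0.0131). BLVRA, the other biliverdin reductase, had 0.15 (SE 0.0685, adjusted p = 0.191). The ferritin chains FTH1 (-0.15, SE 0.0745, adjusted p = 0.209) and FTL (0.13, SE 0.0686, adjusted p = 0.241) did not pass either, and BLVRA, FTH1 and FTL were chosen after their values were seen.

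Of 20 genes of detoxification and export, 8 (40%, beside 18.6% of all genes tested) passed the test, 6 higher and 2 lower (median 0.14). AKR1C1, an aldo-keto reductase, rose (0.72, SE 0.126, adjusted p = 0.0114 by edgeR), with near-identical AKR1C copies that can share its reads. Of these copies, AKR1C2 had 0.44 (SE 0.230, adjusted p = 0.238) and AKR1C3 had -0.13 (SE 0.103, adjusted p = 0.429). AKR1C2 and AKR1C3 did not pass the test and were added after their values were seen. ABCC3, an exporter of conjugates, rose (0.70, SE 0.0852, adjusted p = 0.00341), and AKR1A1, an aldehyde reductase, rose too (0.54, SE 0.103, adjusted p = 0.0148). In the other direction, ABCC1, the exporter MRP1 of glutathione conjugates, fell from 81.2 ± 1.92 to 43.4 ± 1.66 CPM (SD, n = 3 each; log2 fold change -0.91, SE 0.0623, adjusted p = 0.000658). AKR1B1, aldose reductase, fell from 1238 ± 117 to 721 ± 38.5 CPM (SD, n = 3 each; log2 fold change -0.78, SE 0.0824, adjusted p = 0.00213). The other 3 genes of this list that passed, OSGIN1 (0.48, adjusted p = 0.00697), CBR3 (0.45, adjusted p = 0.0306) and ABCC5 (0.26, adjusted p = 0.0488), were higher and fell outside the rule for naming.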

How the data were processed

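The 6 libraries, 3 per group, were made from total RNA of U87 cells. The authors deposited raw counts per gene and FPKM values, scaled to length and mapped fragments, for each library. Per the submitters' processing notes the tools were HISAT2 and HTSeq 0.13.5 on GRCh38, with no role or settings, and the use of strand is not given in the sources used here. The library kit named does not mark strand by default. Of the low count entries, 7927 were 4 and 4188 were 8, against 2458 at 3 and 1437 at 5, so small counts may not be plain tallies of reads. Genes with 0 counts were listed at 0.0001 FPKM. All columns were used.

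Counts of 18106 genes left by the filter on low counts of edgeR 4.0.16 (R 4.3.3) were tested by its quasi-likelihood test with TMM factors (0.992 to 1.01) and Benjamini-Hochberg adjustment, without a block. Errors are SD over libraries, or SE of the fit. Depth was 56388161 counts or more per library. Alternatives used DESeq2 1.42.0, limma 3.58.1 on log2(FPKM + 1) and log2(FPKM + 0.1), other scalings and filters, a replicate block, and libraries left out. The code was tested on simulated data. Positions and exon overlaps came from GENCODE 29, promoters from RefSeq, handled in Python 3.11.15 with pandas 2.3.3 and matplotlib 3.10.9.

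The 9 genes and the lists were chosen with earlier results of these data known. From each list, up to 3 genes in each direction were named, by size of fold change, among those past the threshold that averaged 3 or more on the log2 CPM scale and whose groups did not overlap. For the gene with the smallest p, the 3 most alike profiles were named. Of the 110 list genes, 109 were matched to 1 identifier.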

Additional observations from a re-analysis of the deposited data

How the results depend on the processing

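HMOX1 kept its call under all 16 alternatives. The fold changes of KEAP1, GCLC and TXNRD1 stayed short of the threshold under all 16 and were positive, except GCLC at 0.00 without NC replicate 1, with ranges over the fits that left out 1 library of 0.11 to 0.30, 0.00 to 0.11 and 0.03 to 0.14. Over the same fits NFE2L2 ran from -0.36 to 0.52, NQO1 from -0.42 to -0.06, GCLM from 0.36 to 0.49, SRXN1 from 0.28 to 0.34, SLC7A11 from -0.84 to -0.53 and HMOX1 from 1.05 to 1.21. The number of the 9 genes past the threshold ran from 1 to 3 (higher 1 to 3, lower 0 to 1). All genes past it ran from 1755 to 3183 (higher 898 to 1661, lower 857 to 1522). By list these counts were 0 to 1 for regulators, 3 to 8 for glutathione, 2 to 4 for thioredoxins and related enzymes, 1 to 3 for NADPH supply, 2 to 3 for heme and iron and 5 to 7 for detoxification. Fewer libraries entered these fits. The ratios kept their direction, at -0.44 to -0.30 for GCLC to GCLM and -0.24 to -0.02 for SLC7A11 to SLC3A2, except NFE2L2 to KEAP1 (-0.82 to 0.68).

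Over all 10051 genes together, deviations of same-numbered libraries were not correlated (-0.01, -0.05 and -0.06), so the numbers were not taken to pair the libraries. NFE2L2 and 5 further genes did deviate together in the libraries numbered 2, and the SE of NFE2L2 was 0.728 without the block and 0.111 with it. With the replicate block, 1858 genes passed (950 higher, 908 lower) and 1 of the 9 genes did (1 higher, 0 lower), which was HMOX1. Under the block GCLM was 0.43 (adjusted p = 0.0810), SRXN1 0.31 (adjusted p = 0.0638), SLC7A11 -0.68 (adjusted p = 0.0986) and NFE2L2 -0.02, and regulators, thioredoxins and NADPH supply had 0, 2 and 1 calls.

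DESeq2 called 5782 genes (2940 higher, 2842 lower), with 6 regulators, 12 glutathione genes and 5 heme and iron genes. With 1 count in any library as the only filter, 0 regulators passed in edgeR, where 5905 of all genes had an unadjusted p under 0.05 with the usual filter. limma on log2(FPKM + 1) gave 5 regulators and an NFE2L2 value of 0.00, on log2(FPKM + 0.1) an NFE2L2 value of -0.01, and without the FPKM filter 1 regulator, NFE2L2 at 0.00, SLC7A11 at -0.44 (adjusted p = 0.104) and 0 of the 9 genes lower. Without both libraries numbered 2, which was chosen after seeing the data, 1345 genes passed (708 higher, 637 lower), with 1 of the 9 genes (1 higher, 0 lower) and 0 regulators, 2 glutathione, 2 thioredoxin, 1 NADPH, 0 heme and 3 detoxification genes. GCLM was then 0.53 (adjusted p = 0.0620), SRXN1 0.26 (adjusted p = 0.119) and SLC7A11 -0.44 (adjusted p = 0.137). The cause of these changes was not tested, beyond the smaller number of libraries or genes in the fits that leave some out.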

Other observations

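The 6 genes with both libraries numbered 2 below the other 4 by a gap over 1 log2 unit, chosen after their values were seen, were LINC00205 (gap 3.04), NFE2L2 (1.95), STK4 (1.56), PMP22 (1.54), SLC25A36 (1.44) and TEAD3 (1.24). STK4 had 102, 33.0 and 105 CPM in NC-1, NC-2 and NC-3 and 97.6, 24.1 and 108 CPM in shPRMT6. TEAD3 had 27.2, 10.1 and 28.8 CPM in NC and 26.3, 8.42 and 24.0 CPM in shPRMT6. SLC25A36 had 126, 46.3 and 144 CPM in NC and 126, 30.4 and 131 CPM in shPRMT6. PMP22 had 156, 40.6 and 145 CPM in NC and 215, 49.8 and 219 CPM in shPRMT6. LINC00205 had 18.6, 1.05 and 9.36 CPM in NC and 17.6, 0.601 and 22.1 CPM in shPRMT6. Like NFE2L2, each of these differed more between libraries of 1 group than between the groups.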
